A study of Mus musculus with 9 samples.

Results

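Eph receptors, ephrins, semaphorins, plexins and neuropilins were followed by RNA-seq in 9 libraries of sorted mouse neural tube organoid cells. The genes are the 53 rows of the count table whose Ensembl gene ID belongs to 1 of these families, chosen by name, out of 54532 genes. They comprise 14 Eph receptors, 8 ephrins, 20 semaphorins, 9 plexins and 2 neuropilins. All libraries came from R1 mouse embryonic stem cells of the FoxA2-Venus genotype, a fluorescent reporter on the floor plate factor Foxa2. The cells were grown as clones in Matrigel in N2B27 medium, and the organoids were collected 66 h after a change of medium on day 2. SAG GFP+ cells (n = 3 libraries) were the reporter-high cells of organoids in medium whose sample titles name SAG, an agonist of the hedgehog transducer Smoothened. RA GFP+ cells (n = 3) were the reporter-high cells of organoids in medium with all-trans retinoic acid (RA). RA GFP- cells (n = 3) were the reporter-low cells of RA medium. The sources differ on the RA dose, with 250 nM in the design description and 250 µM in the protocol for treatment, and the SAG dose is not given in the sources used here. All groups share 1 reporter line, and reporter-low cells of SAG medium were not analysed here, so sort and medium can be compared only where a pair of groups shares the other. The replicates are called biological in the labels, which do not say how many organoids made up a library.

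Eph receptors are receptor tyrosine kinases that bind ephrins on the surface of a neighbouring cell. A ephrins are held in the membrane by a lipid anchor and B ephrins span it, and signals run into both cells, which sorts cells into compartments and steers growth cones. Semaphorins signal through plexins, and most of the secreted class 3 semaphorins need a neuropilin as the binding part of a neuropilin and plexin complex. The floor plate, the ventral midline of the neural tube, is known as a source of guidance signals for commissural axons, and class 3 semaphorins and ephrins are among the cues known at or near the midline.

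Total counts per library ran from 25281871 to 29763765. Levels are given as CPM, counts scaled to a common library size over the tested genes with TMM factors of 0.972 to 1.029. Calls of higher or lower rest on an adjusted p under 0.05 in edgeR's quasi-likelihood test over 16772 genes, and every adjusted p below comes from that test unless another is named. Foxa2, the gene behind the sort, had 326, 212 and 205 CPM in SAG GFP+ (in the order of replicates 1 to 3, as for all genes below), 184, 157 and 133 CPM in RA GFP+ and 2.47, 1.33 and 2.51 CPM in RA GFP-. The floor plate list (7 genes) summed to 884 to 1200.0 in SAG GFP+, 762 to 1219 in RA GFP+ and 187 to 266 in RA GFP- (CPM), and the pan-neural progenitor list (7 genes) to 1303 to 1408 in SAG GFP+, 498 to 754 in RA GFP+ and 1259 to 1413 in RA GFP-. Pluripotency markers (8 genes) summed to 60.9 to 226 in SAG GFP+, 45.9 to 61.5 in RA GFP+ and 725 to 1158 in RA GFP- CPM. SAG GFP+ replicate 1 stood apart there, with 226 CPM against 60.9 and 72.1 CPM in the other SAG GFP+ libraries and Pou5f1 at 171 CPM against 37.4 and 39.3 CPM. Within this list, 3 of 8 genes were called higher and 4 lower in SAG GFP+ than in RA GFP+. Zfp42 had 0.204, 0.187 and 0.467 CPM in SAG GFP+ against 12.2, 7.93 and 8.27 CPM in RA GFP+. Of the 7 pan-neural genes, 1 was called higher and 2 lower in SAG GFP+ than in RA GFP-. Pax6 had 14.5, 5.58 and 6.73 CPM in SAG GFP+ against 100, 150 and 126 CPM in RA GFP-.

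Of the 53 genes, 51 passed the filter on low counts. Epha6, an A-type Eph receptor, had 15 counts in all over the 9 libraries and Plxnb3, a B plexin, had 12, so neither was tested. The levels of the other genes, set per kb of exon so that genes can be compared, ran over a wide range. Plxna1, a signalling partner of neuropilins, had the highest level when genes were ordered by their highest group mean, at 49.1 in SAG GFP+, 53.8 in RA GFP+ and 34.6 in RA GFP- CPM per kb (group means). Next in that order came Efnb3, a B ephrin known from the spinal cord midline, at 37.1 in SAG GFP+, 23 in RA GFP+ and 26.9 in RA GFP-, and Efna4, an A ephrin, at 20.1 in SAG GFP+, 30.8 in RA GFP+ and 17.1 in RA GFP- CPM per kb. In RA GFP+ alone Efna4 lay above Efnb3. At the low end among tested genes, Sema3g, Epha5 and Sema4a stayed under 0.4 CPM per kb in every group mean. Of the 51 tested genes, 17 had their highest group mean in SAG GFP+, 23 in RA GFP+ and 11 in RA GFP-.

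Summed by class, the secreted class 3 semaphorins (7 genes) differed most in proportion between groups among the classes of several genes, at 19.5 ± 2.65 in SAG GFP+, 25 ± 2.62 in RA GFP+ and 7.03 ± 0.583 in RA GFP- CPM per kb (mean ± SD, n = 3). The A ephrins (5 genes) were at 58.7 ± 1.85 in SAG GFP+, 78.6 ± 6.61 in RA GFP+ and 51.2 ± 0.61 in RA GFP- CPM per kb. EphB receptors (5 genes) were at 56.2 ± 5.95 in SAG GFP+, 56.6 ± 2.15 in RA GFP+ and 36.4 ± 3.01 in RA GFP-, and EphA receptors (9 genes) at 43.4 ± 8.76 in SAG GFP+, 29 ± 3.55 in RA GFP+ and 29.2 ± 0.671 in RA GFP- CPM per kb. EphB receptors, A ephrins, class 3 semaphorins and the A, B, C and D plexins stood above RA GFP- in every library of both GFP+ groups. EphA receptors stood above RA GFP- in every library of SAG GFP+ and overlapped it in RA GFP+. The class 5 semaphorins (2 genes) ran the other way in the RA groups, at 9.88 ± 0.989 in SAG GFP+, 5.1 ± 0.852 in RA GFP+ and 11.8 ± 3.69 in RA GFP- CPM per kb. These sums are levels and were not tested.

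**Figure D1:**
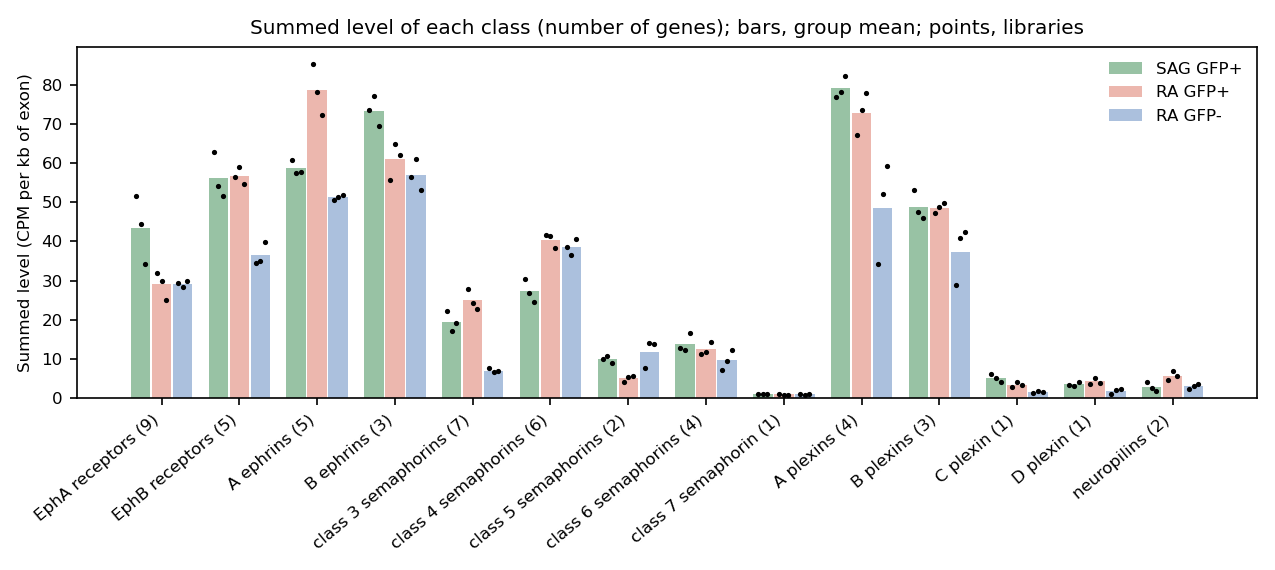
Summed level of each class in CPM per kb of exon, with bars for group means and points for libraries (n = 3 per group). Class 3 semaphorins, EphB receptors, A ephrins and every plexin class lie above RA GFP- in every library of both GFP+ groups, and the A ephrins have their largest sum in RA GFP+.

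Promoter sequence is shown for 3 semaphorins with large differences between the GFP+ and GFP- sorts, so that the letters can be set beside the levels that follow. Each line gives the 250 bases before the RefSeq start (GRCm38.p6, plus strand for all of them), 5′ to 3′. Capitals mark matches to the letters AGGTCA (a half-site known for retinoic acid receptors) or CCACCCA (the core known for Gli factors) on either strand, and TGTTTAC, known for Foxa factors, was searched in the same way. The Sema3d window is chr5:12382916-12383165, the Sema3e window is chr5:14025026-14025275 and the Sema5a window is chr15:32244563-32244812.
Sema3d: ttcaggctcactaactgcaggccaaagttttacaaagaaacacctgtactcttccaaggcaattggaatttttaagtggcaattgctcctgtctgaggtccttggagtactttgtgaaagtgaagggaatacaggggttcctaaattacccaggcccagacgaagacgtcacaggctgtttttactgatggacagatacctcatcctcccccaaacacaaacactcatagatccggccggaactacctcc
Sema3e: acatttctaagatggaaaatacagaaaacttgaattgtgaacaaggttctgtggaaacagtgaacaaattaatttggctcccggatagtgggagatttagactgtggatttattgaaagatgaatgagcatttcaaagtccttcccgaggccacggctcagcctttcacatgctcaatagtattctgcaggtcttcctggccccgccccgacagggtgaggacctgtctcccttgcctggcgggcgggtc
Sema5a: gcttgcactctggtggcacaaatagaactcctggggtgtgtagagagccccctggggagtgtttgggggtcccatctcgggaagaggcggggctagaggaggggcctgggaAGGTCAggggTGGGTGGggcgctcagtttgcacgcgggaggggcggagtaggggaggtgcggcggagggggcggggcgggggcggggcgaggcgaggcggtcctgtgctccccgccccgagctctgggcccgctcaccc
The Sema5a window held both the half-site and, on the opposite strand, the Gli letters a few bases further on, and the Sema3d and Sema3e windows held none of the motifs. In all, 47 of the 53 genes matched a RefSeq entry, with 61 windows between them. The half-site was found in 8 of these 61 windows, 13.1%, against 14% of 32851 windows of the same length. The Gli letters were found in 6 of 61, 9.84%, against 8.11% of all windows, and the Foxa letters in 0 of 61 against 3.17% of all windows. A match is a description of the letters in the window. Windows with the half-site belonged to Epha2, Sema4b, Sema4d, Sema5a, Sema6b, Plxnb2, Plxnd1 and Nrp1.

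The comparison of RA GFP+ with RA GFP- cells asks which of these genes go with the reporter sort inside RA organoids. Of the 51 tested genes, 20 were higher and 7 lower in RA GFP+ (52.9% called, against 16.9% of all 16772 genes tested, with 8.49% higher and 8.43% lower). Their median log2 fold change was 0.43, against -0.02 over all tested genes. The libraries of the 2 groups did not overlap for 33 of the 51, against 36.4% of all tested genes. Of the class 3 semaphorins 6 of 7 rose, Sema3g being the exception, and Nrp1, Ephb3, Epha8, Sema5a and Sema6a rose too, while Epha3, Epha5, Epha10, Sema4b, Sema5b and Sema6d were among the genes that fell. In bulk libraries, fewer cells of a type and less RNA per cell cannot be told apart.

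The comparison of SAG GFP+ with RA GFP+ cells asks how reporter-high cells differ between the media. Here 6 of the 51 genes were higher and 10 lower in SAG GFP+ (31.4% called, against 24.5% of all genes tested, with 9.78% higher and 14.8% lower). The median log2 fold change was -0.06, against -0.02 over all tested genes, and the libraries did not overlap for 26 of the 51, against 42.9% of all tested genes. The share called is closer to the background here than in the RA comparison. Sema3a, Sema3d, Nrp1 and 3 A ephrins were lower in SAG GFP+, and Sema5b, Sema6a and Efnb3 higher. RA GFP+ libraries stand in both comparisons, so a gene high or low in RA GFP+ alone has opposite signs in them by construction, and the 2 sets of values are given side by side.

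**Figure D2:**
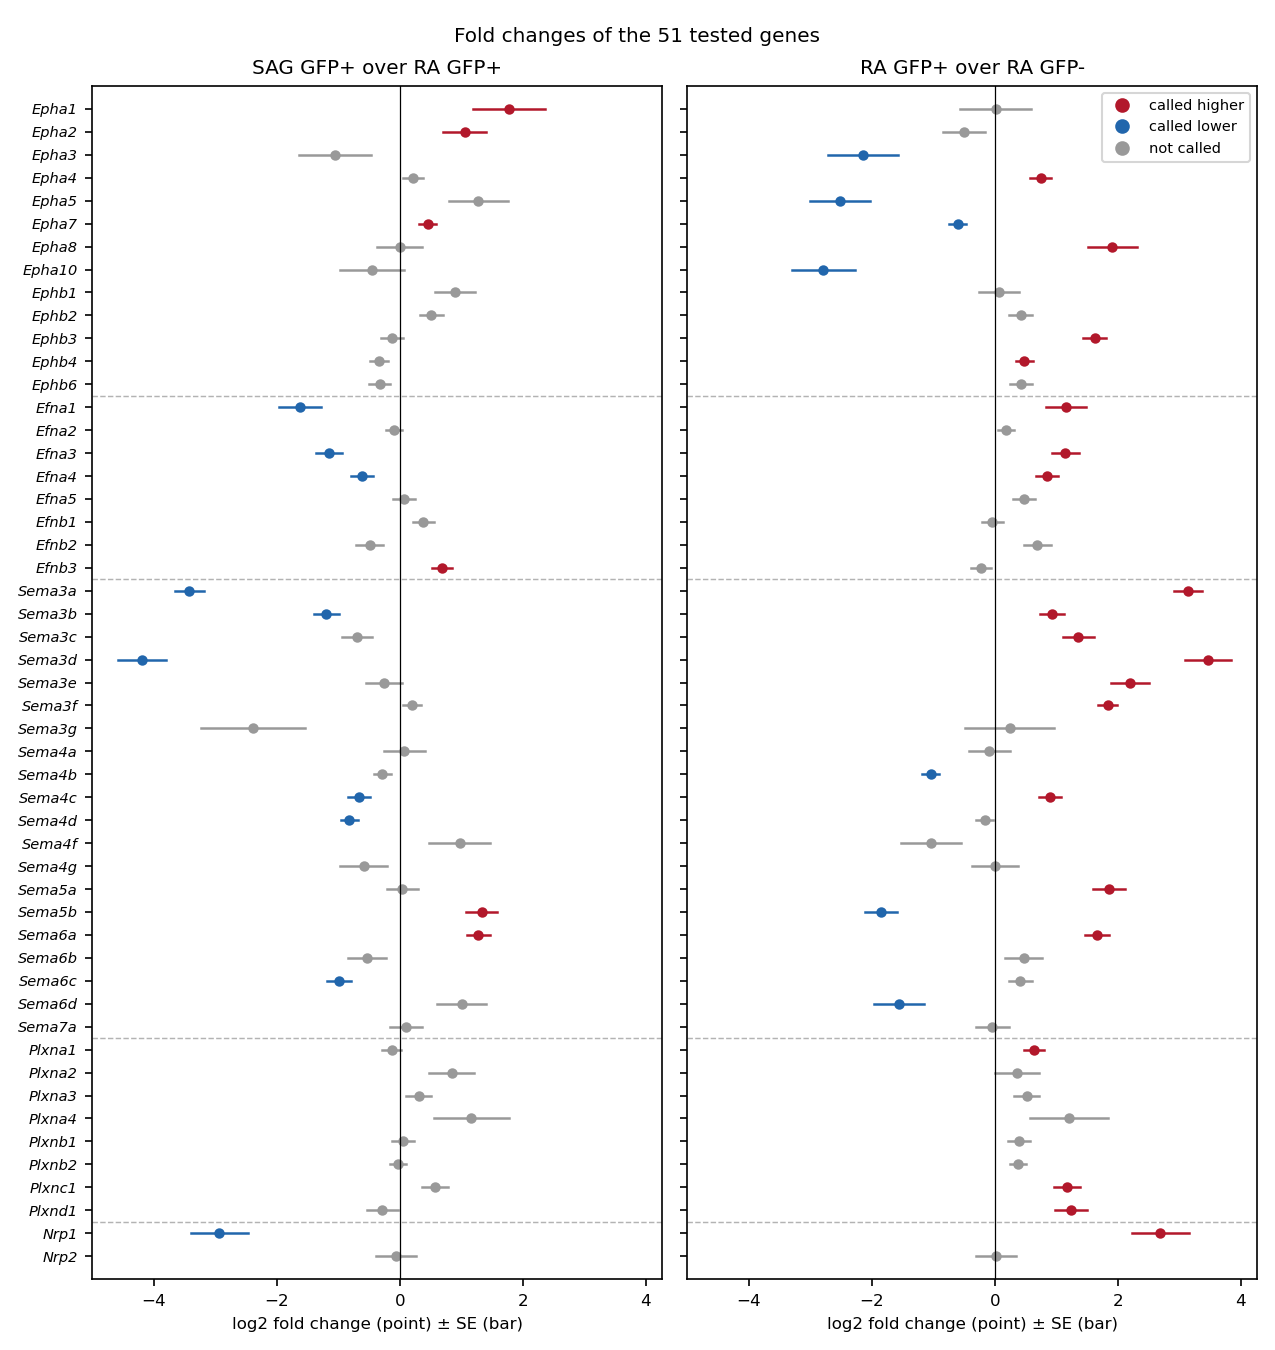
Log2 fold change (point) ± SE (bar) of the 51 tested genes for SAG GFP+ over RA GFP+ on the left and RA GFP+ over RA GFP- on the right, on the same axis, with called genes in colour and dashed lines between families. Sema3a and Sema3d lie furthest from 0 among called genes in both panels, on opposite sides.

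Among the 13 tested Eph receptors, 4 were higher and 4 lower in RA GFP+ than in RA GFP- cells (61.5% called, against 16.9% of all genes tested), with a median log2 fold change of 0.07. Ephb3, a B-type receptor known from midline axon tracts and epithelial cell sorting, had 93.5, 74 and 71.4 CPM in SAG GFP+, 87.8, 99.1 and 74.6 CPM in RA GFP+ and 28.2, 22.1 and 34.5 CPM in RA GFP-. Both GFP+ groups lay above every RA GFP- library. Ephb3 (ENSMUSG00000005958, chromosome 16, 21204755 to 21223305, plus strand, GRCm38) was 3.08-fold higher in RA GFP+ than in RA GFP- (log2 fold change 1.62, SE 0.18, adjusted p = 0.000163), and SAG GFP+ and RA GFP+ libraries overlapped (-0.13, SE 0.18, adjusted p = 0.634). Epha8, an A-type receptor, was at low level, with 7.41, 2.85 and 3.89 CPM in SAG GFP+, 4.94, 3.8 and 5.44 CPM in RA GFP+ and 1.2, 0.953 and 1.6 CPM in RA GFP-. It too was higher in RA GFP+ than in RA GFP- (1.91, SE 0.39, adjusted p = 0.00601), with no overlap between them. Epha4, which binds both ephrin types and is known for steering motor and corticospinal axons, averaged 149.6 ± 12.8 CPM in SAG GFP+, 129 ± 26.5 CPM in RA GFP+ and 77 ± 12.2 CPM in RA GFP-. It rose in RA GFP+ (0.74, adjusted p = 0.0095; adjusted p = 0.052 without RA GFP+ replicate 2). Ephb4, the receptor of Efnb2 on veins, also rose by a small margin (0.48, adjusted p = 0.036), a call that was lost without any 1 of 6 libraries (adjusted p from 0.0502 to 0.131) and under upper quartile scaling (0.0518).

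The Eph receptors that fell were of the A type. Epha10, whose kinase domain lacks catalytic activity, had 0.855, 1.24 and 0.934 CPM in SAG GFP+, 1.02, 1.98 and 1.15 CPM in RA GFP+ and 3.25, 10.3 and 15.3 CPM in RA GFP-. The RA GFP- libraries spread widely but all lay above both GFP+ groups. Its level was 6.9-fold lower in RA GFP+ than in RA GFP- cells (-2.79, SE 0.51, adjusted p = 0.0032; ENSMUSG00000028876, chromosome 4, 124880899 to 124917800, plus strand). Epha5, known for topographic axon maps, had 2.61, 0.824 and 0.818 CPM in SAG GFP+, 0.431, 0.638 and 0.663 CPM in RA GFP+ and 3.21, 3.31 and 3.5 CPM in RA GFP-. RA GFP- was even across its libraries and the highest group, and the SAG GFP+ libraries fell between the RA groups. The fall in RA GFP+ was 5.73-fold (-2.52, SE 0.48, adjusted p = 0.00428). Epha3, a receptor known on medial motor neurons, had 2.04, 2.14 and 2.37 CPM in SAG GFP+, 1.25, 2.99 and 9.35 CPM in RA GFP+ and 11.2, 21.5 and 27.7 CPM in RA GFP-. RA GFP+ replicate 3 stood far above the other RA GFP+ libraries but below every RA GFP- library. Its call (-2.14, SE 0.57, adjusted p = 0.0224) was lost without RA GFP- replicate 2 or 3 or RA GFP+ replicate 2 (adjusted p = 0.0576, 0.0729 and 0.0969), and the log2 fold change was -3.23 without RA GFP+ replicate 3. Epha7, known from neural fold closure, averaged 42 ± 2.86 CPM in SAG GFP+, 30.6 ± 3.72 CPM in RA GFP+ and 46.4 ± 4.51 CPM in RA GFP- and was lower in RA GFP+ (-0.60, adjusted p = 0.0113), with adjusted p of 0.0601 and 0.0564 when RA GFP+ replicate 1 or 2 was left out. Neuron markers (10 of 10 tested) fell in the same comparison, with summed levels of 393 to 671 in SAG GFP+, 85 to 105 in RA GFP+ and 321 to 464 in RA GFP- CPM, and pluripotency markers fell in 7 of 8. The part of either cell type in the Eph receptor differences was not tested.

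Between SAG GFP+ and RA GFP+, 3 of the 13 tested Eph receptors were higher and the other 10 were not called. That is 23.1% called, near the 24.5% of all genes tested. Epha1, an A-type receptor, had 48.8, 8.84 and 9.19 CPM in SAG GFP+, 6.62, 4.37 and 8.54 CPM in RA GFP+ and 8.76, 5.98 and 4.61 CPM in RA GFP-. SAG GFP+ replicate 1 stood far above all other libraries. Its call (1.77, SE 0.59, adjusted p = 0.0472) rests on that library, since the log2 fold change was 0.49 and the adjusted p 0.296 without it, and the call was lost in DESeq2 (0.0508), when those groups were fitted alone (0.0732) and without any 1 of the RA libraries (0.0534 to 0.159). Epha1 shares 6.01% of its exon bases with Zyx on the opposite strand, which had 18003 counts against 2740 for Epha1, and the strand setting of the counting is not given in the sources used here. Epha2, a receptor also known from early embryonic epithelium, had 65.9, 77.1 and 44.6 CPM in SAG GFP+, 48.9, 22.4 and 19.2 CPM in RA GFP+ and 56.6, 30.6 and 41.1 CPM in RA GFP-. The SAG GFP+ and RA GFP+ libraries overlapped. The call (1.05, SE 0.34, adjusted p = 0.0444) was lost when those groups were fitted alone (0.0532) and without any 1 of RA GFP- replicate 3, RA GFP+ replicates 2 and 3 and SAG GFP+ replicates 1 and 2 (0.0562 to 0.162). Epha7 was higher in SAG GFP+ (0.45, adjusted p = 0.0327; lost without the low-count filter at 0.0655, and without any 1 of RA GFP+ replicates 1 and 2 and SAG GFP+ replicates 2 and 3, at 0.0632 to 0.141). Ephb2, a receptor of commissural tracts, was not called, though its libraries did not overlap, at 194, 193 and 207 CPM in SAG GFP+, 119, 151 and 147 CPM in RA GFP+ and 71.8, 105 and 134 CPM in RA GFP- (0.51, SE 0.19, adjusted p = 0.0714). It was called higher in 7 alternatives, among them DESeq2 (0.0458) and a fit of those groups alone (0.0102). Ephb1, known for the ipsilateral retinal projection, averaged 33.7 ± 5.45 CPM in SAG GFP+, 18.1 ± 5.21 CPM in RA GFP+ and 17.3 ± 9.31 CPM in RA GFP- (0.90, adjusted p = 0.0669). Ephb1 too was called higher in 7 alternatives, among them DESeq2 (0.0252) and a fit of those groups alone (0.0174). Ephb6, a receptor with an inactive kinase domain, averaged 10.5 ± 1.18 CPM in SAG GFP+, 13.2 ± 0.318 CPM in RA GFP+ and 9.82 ± 0.526 CPM in RA GFP- and was called in neither comparison.

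**Figure D3:**
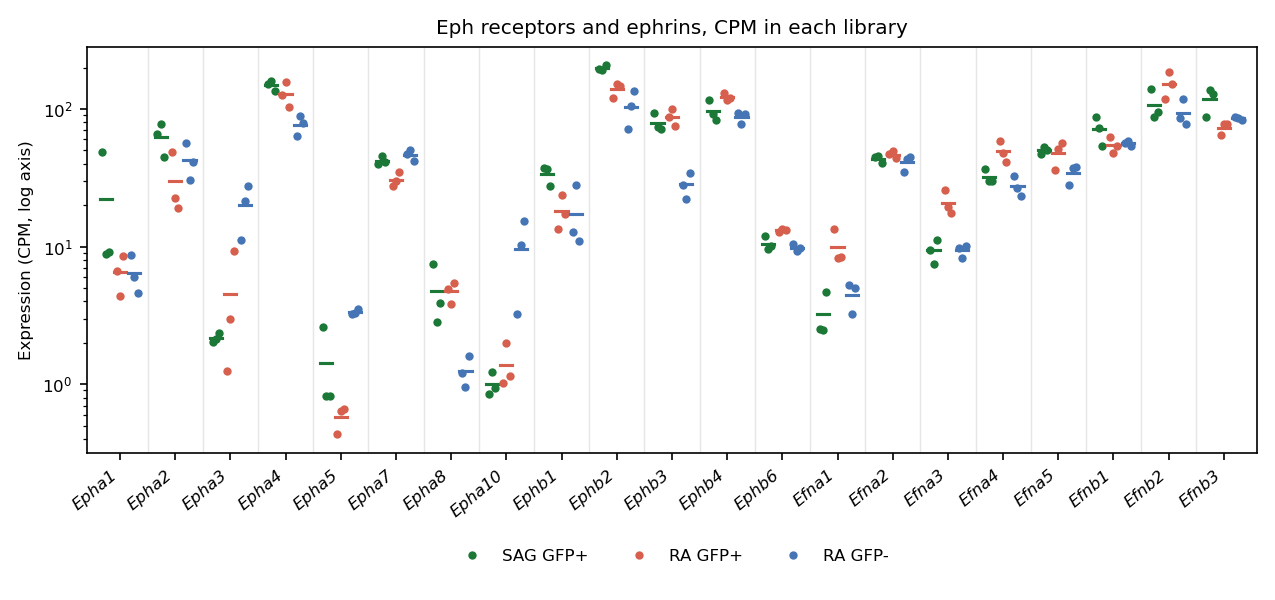
CPM in each library (points) and group means (lines) for the tested Eph receptors and ephrins on a log axis, with SAG GFP+ left of RA GFP+ and RA GFP- in each gene. Ephb3 and Epha8 are higher in both GFP+ groups than in RA GFP-, Epha3 and Epha10 lower, and Efna1, Efna3 and Efna4 peak in RA GFP+.

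Among the 8 ephrins, 3 were higher in RA GFP+ than in RA GFP- and the other 5 were not called. That is 37.5% called, against 16.9% of all genes tested, with a median log2 fold change of 0.58. In SAG GFP+ against RA GFP+, 3 were lower, 1 was higher, and 4 were not called (50% called, against 24.5% of all genes tested). Higher in RA GFP+ against RA GFP- and lower in SAG GFP+ against RA GFP+ were the A ephrins Efna1, Efna3 and Efna4, lipid-anchored ligands of the EphA receptors. Efna3 had 9.45, 7.49 and 11.2 CPM in SAG GFP+, 25.6, 19.3 and 17.6 CPM in RA GFP+ and 9.71, 8.31 and 10.2 CPM in RA GFP-. Every RA GFP+ library lay above all the others, and the levels in SAG GFP+ and RA GFP- overlapped. It was 2.22-fold higher in RA GFP+ than in RA GFP- (1.15, SE 0.22, adjusted p = 0.00377) and 2.22-fold lower in SAG GFP+ than in RA GFP+ (-1.15, SE 0.22, adjusted p = 0.00259). Efna1 had 2.53, 2.47 and 4.71 CPM in SAG GFP+, 13.4, 8.27 and 8.41 CPM in RA GFP+ and 5.22, 3.24 and 4.99 CPM in RA GFP-. RA GFP+ was again the highest group in every library, and SAG GFP+ and RA GFP- overlapped. Its rise in RA GFP+ (1.16, SE 0.33, adjusted p = 0.0333) was lost without any 1 of 5 of the 6 RA libraries (adjusted p from 0.0552 to 0.145), whereas the lower level in SAG GFP+ (-1.63, SE 0.34, adjusted p = 0.00472) kept its call without each library in turn. Efna4 averaged 32.2 ± 3.88 CPM in SAG GFP+, 49.3 ± 8.75 CPM in RA GFP+ and 27.4 ± 4.79 CPM in RA GFP-. It was higher in RA GFP+ than in RA GFP- (0.85, adjusted p = 0.00665) and lower in SAG GFP+ than in RA GFP+ (-0.62, adjusted p = 0.0247; 0.0648 to 0.119 without any 1 of RA GFP+ replicates 1 and 2 and SAG GFP+ replicates 2 and 3).

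Efna1, Efna3 and Efna4 lie within 66.3 kb on chromosome 3 (89271733 to 89338028, GRCm38), where they are the 3 tested genes among 5 annotated ones. Efna3 shares 14.1% of its exon bases with an antisense gene that had 40 counts, against 3213 for Efna3. Efna4 shares 10.5% with one that had 404 counts, against 8802 for Efna4.

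Efnb3, the B ephrin known as a midline barrier to corticospinal axons, had 87.9, 138 and 128 CPM in SAG GFP+, 64.3, 77.1 and 78.2 CPM in RA GFP+ and 86.8, 86.1 and 83.7 CPM in RA GFP-. SAG GFP+ lay above RA GFP+ in every library. Efnb3 was higher in SAG GFP+ than in RA GFP+ (0.69, SE 0.16, adjusted p = 0.00911) and was not called between the RA groups (-0.22, adjusted p = 0.394). Efnb2, the B ephrin of arteries, had 141, 87.9 and 94.4 CPM in SAG GFP+, 119, 184 and 151 CPM in RA GFP+ and 86.5, 117 and 77.8 CPM in RA GFP-. Its adjusted p between the RA groups was 0.0522 (log2 fold change 0.69), and 0.0362 in a fit of the RA groups alone, or 0.000902 with the replicate number as a block in that fit. Efna2, Efna5 and Efnb1, an X-linked B ephrin, were called in neither of these comparisons. Their group means lay between 34.5 CPM (Efna5 in RA GFP-) and 71.2 CPM (Efnb1 in SAG GFP+).

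Among the 20 tested semaphorins, 9 were higher and 3 lower in RA GFP+ than in RA GFP-. That is 60% called, against 16.9% of all genes tested, with a median log2 fold change of 0.44. In SAG GFP+ against RA GFP+, 2 were higher and 6 lower (40% called, against 24.5% of all genes tested, median -0.41). Of the 7 class 3 genes, which encode secreted ligands, 6 were higher in RA GFP+ than in RA GFP-. They fell into genes high in RA GFP+ alone and genes high in both GFP+ groups.

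Sema3a, the axon repellent that acts through Nrp1, had 2.65, 3.37 and 1.99 CPM in SAG GFP+, 26.2, 30.04 and 29.7 CPM in RA GFP+ and 3.35, 2.97 and 3.43 CPM in RA GFP-. The RA GFP+ libraries lay close together and far above all others, and the SAG GFP+ and RA GFP- libraries overlapped. Sema3a (ENSMUSG00000028883, chromosome 5, 13125414 to 13602565, plus strand, GRCm38) was 8.81-fold higher in RA GFP+ than in RA GFP- cells (3.14, SE 0.23, adjusted p = 1.04e-05) and 10.7-fold lower in SAG GFP+ than in RA GFP+ cells (-3.42, SE 0.23, adjusted p = 3.49e-06). Sema3d, known from heart and vessel patterning, had 0.692, 0.899 and 0.35 CPM in SAG GFP+, 8.23, 12.6 and 14.9 CPM in RA GFP+ and 0.847, 1.26 and 1.1 CPM in RA GFP-. Again no SAG GFP+ or RA GFP- library came near an RA GFP+ library. Sema3d (ENSMUSG00000040254, chromosome 5, 12383385 to 12588948, plus strand), whose promoter window is printed above, was 11.1-fold higher in RA GFP+ than in RA GFP- (3.47, SE 0.37, adjusted p = 0.000115) and 18.2-fold lower in SAG GFP+ than in RA GFP+ (-4.19, SE 0.39, adjusted p = 2.72e-05). Sema3b, known as a floor plate repellent for axons that have crossed the midline, had 4.77, 5.47 and 5.76 CPM in SAG GFP+, 12.5, 12.9 and 11.2 CPM in RA GFP+ and 6.67, 6.1 and 6.55 CPM in RA GFP-. The RA GFP+ libraries were the highest of the 9. It rose in RA GFP+ (0.92, SE 0.20, adjusted p = 0.00717) and was lower in SAG GFP+ than in RA GFP+ (-1.19, SE 0.20, adjusted p = 0.00113).

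Sema3e, which binds Plxnd1 without a neuropilin, had 67, 38.1 and 48.9 CPM in SAG GFP+, 93, 52.8 and 38.2 CPM in RA GFP+ and 14.4, 11.8 and 13.9 CPM in RA GFP-. Both GFP+ groups spread widely, overlapped each other and lay above all RA GFP- libraries. Sema3e (ENSMUSG00000063531, chromosome 5, 14025276 to 14256689, plus strand) was 4.58-fold higher in RA GFP+ than in RA GFP- (2.19, SE 0.31, adjusted p = 0.000606), and the difference between SAG GFP+ and RA GFP+ was not called (-0.26, SE 0.29, adjusted p = 0.56). Sema3f, the ligand of Nrp2, had 62.4, 51.2 and 55.6 CPM in SAG GFP+, 54.8, 47.7 and 45.2 CPM in RA GFP+ and 16, 12.4 and 13 CPM in RA GFP-. The pattern matched that of Sema3e with less spread. Sema3f (ENSMUSG00000034684, chromosome 9, 107681500 to 107710475, minus strand) was 3.56-fold higher in RA GFP+ than in RA GFP- (1.83, SE 0.15, adjusted p = 2.12e-05) and uncalled between the GFP+ groups (0.20, SE 0.14, adjusted p = 0.353). Sema3c, known for guiding neural crest into the heart outflow tract, had 13.1, 11.4 and 12.4 CPM in SAG GFP+, 12.3, 21.8 and 25.5 CPM in RA GFP+ and 7.63, 8.34 and 7.23 CPM in RA GFP-. RA GFP+ replicate 1 lay within the SAG GFP+ range, and both GFP+ groups lay above RA GFP-. It rose in RA GFP+ (1.36, SE 0.25, adjusted p = 0.00326) and was not called in SAG GFP+ against RA GFP+ (-0.69, SE 0.24, adjusted p = 0.0592; 0.00771 without RA GFP+ replicate 1). Sema3g, another Nrp2 ligand, stayed under 1.1 CPM in every library and was called in neither comparison.

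The neuropilins differed from each other. Nrp1, the co-receptor of Sema3a and of VEGF, had 2.2, 6.14 and 3.89 CPM in SAG GFP+, 22.5, 46.1 and 25.2 CPM in RA GFP+ and 2.15, 6.52 and 5.86 CPM in RA GFP-. All RA GFP+ libraries were above all others, and SAG GFP+ and RA GFP- overlapped. Nrp1 (ENSMUSG00000025810, chromosome 8, 128358604 to 128503363, plus strand, GRCm38) was 6.46-fold higher in RA GFP+ than in RA GFP- (2.69, SE 0.46, adjusted p = 0.00212) and 7.65-fold lower in SAG GFP+ than in RA GFP+ (-2.93, SE 0.47, adjusted p = 0.000886). Nrp2 averaged 28.7 ± 16.2 CPM in SAG GFP+, 29.9 ± 4.8 CPM in RA GFP+ and 29.6 ± 6.52 CPM in RA GFP- and was called in neither comparison, with adjusted p of 0.986 between the RA groups and 0.918 between the GFP+ groups. Endothelial and mesenchymal cells also express Nrp1 and class 3 semaphorins. The endothelial list (9 genes) summed to 14.1 to 17.1 in SAG GFP+, 32.4 to 41.5 in RA GFP+ and 68.7 to 101 in RA GFP- CPM. Pecam1 made up most of the RA GFP- sum, at 59.5, 40.7 and 68.4 CPM, against 7.45, 6.65 and 4.99 CPM in RA GFP+. In RA GFP-, Kdr had 1.73, 3.96 and 1.18 CPM and Cdh5 0.918, 0.419 and 0.609 CPM. The larger sum in RA GFP- than in RA GFP+ was therefore mainly a difference in Pecam1, not in the list as a whole. Pecam1 was the gene called lower in RA GFP+, and Tek the gene called higher, at 7.1 CPM against 3.41 CPM in RA GFP-. Emcn was at 0 in 8 of the 9 libraries and Cdh5 at 0 in SAG GFP+, with 1 higher and 1 lower of 8 tested in RA GFP+ against RA GFP- and 6 lower in SAG GFP+ against RA GFP+. The mesenchyme list (10 genes) summed to 33.4 to 46.8 in SAG GFP+, 62.8 to 71 in RA GFP+ and 16.3 to 22.1 in RA GFP- CPM, with 5 higher and 1 lower in RA GFP+ against RA GFP- and 5 lower in SAG GFP+ against RA GFP+. Osr1 was at 0 in SAG GFP+. The endoderm list (8 genes) summed to 3.26 to 8.02 in SAG GFP+, 48 to 70.3 in RA GFP+ and 5.21 to 6.67 in RA GFP- CPM, of which Sox17 made up most in RA GFP+, and Afp was at 0 in SAG GFP+ and RA GFP-, with 4 of 5 tested members higher in RA GFP+ against RA GFP- and 3 lower in SAG GFP+ against RA GFP+. The neural crest list (6 genes) summed to 34.4 to 50.6 in SAG GFP+, 47.6 to 58.8 in RA GFP+ and 36 to 36.5 in RA GFP- CPM, with 2 higher and 3 lower in RA GFP+ against RA GFP- and 1 lower in SAG GFP+ against RA GFP+. Ets1, which is not restricted to neural crest, made up most of it in RA GFP+ (37.9 CPM in RA GFP+ and 10.1 CPM in RA GFP-), while Foxd3, Tfap2a and Tfap2b were lower there. Sox10 was higher there too, at 2.35, 2.22 and 3.84 CPM in RA GFP+ against 0.565, 0.381 and 1.1 CPM in RA GFP-. The part of these cell types in the semaphorin and neuropilin differences was not tested.

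**Figure D4:**
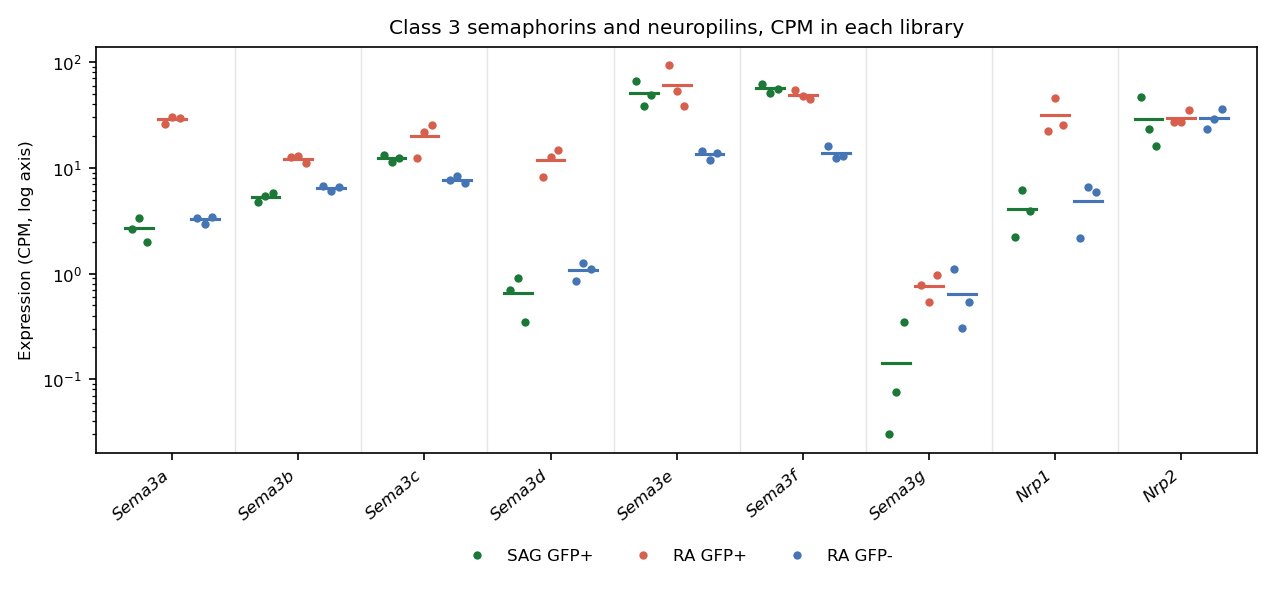
CPM in each library (points) and group means (lines) for class 3 semaphorins and neuropilins on a log axis, where the Sema3g value of 0 in SAG GFP+ replicate 1 is drawn at 0.03. Sema3a, Sema3d and Nrp1 are high in RA GFP+ alone, and Sema3e and Sema3f are high in both GFP+ groups.

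Sema3d, Sema3a, Sema3e and Sema3c lie along 5346.9 kb of chromosome 5 (12383385 to 17730268, GRCm38), a span of 77 annotated genes of which 10 were tested. All 4 semaphorins rose in RA GFP+ against RA GFP-, while the 6 other tested genes, Cacna2d1 and Pclo among them, were not called there. Of these, Gm10481, Gm8984 and Gm26954 averaged only 0.304 to 0.497 CPM in the RA groups. Gm43719, between Sema3d and Sema3e, had 1.68 CPM in RA GFP+ and 0.401 CPM in RA GFP- (2.05, SE 0.69, adjusted p = 0.0659). In SAG GFP+ against RA GFP+ these 6 split into 2 higher, 2 lower and 2 not called. Cacna2d1 and Pclo were higher and Gm43719 (-2.81, SE 0.74, adjusted p = 0.0163) and Gm26954 lower. Sema3b and Sema3f lie within 112.8 kb of chromosome 9 (107597674 to 107710475), and the 3 other tested genes of that span were not called between the RA groups. Sema3b and Sema3f differed in SAG GFP+, where Sema3b was lower than in RA GFP+ and Sema3f was not called.

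The transmembrane semaphorins moved in both directions. Sema6a, a ligand of Plxna2 and Plxna4 known for keeping motor neuron cell bodies inside the spinal cord, had 62.8, 56.7 and 79.1 CPM in SAG GFP+, 25.5, 25.2 and 31.4 CPM in RA GFP+ and 6.57, 9.75 and 9.63 CPM in RA GFP-. The groups formed 3 steps without overlap. Sema6a was 3.17-fold higher in RA GFP+ than in RA GFP- (1.66, SE 0.19, adjusted p = 0.000207) and a further 2.42-fold higher in SAG GFP+ than in RA GFP+ (1.27, SE 0.19, adjusted p = 0.000542). Sema5a, a transmembrane semaphorin with thrombospondin repeats, had 50.9, 31.8 and 31.5 CPM in SAG GFP+, 34.3, 42.5 and 34.1 CPM in RA GFP+ and 6.85, 13.2 and 10.5 CPM in RA GFP-. Both GFP+ groups lay above RA GFP- and overlapped each other. It was 3.63-fold higher in RA GFP+ than in RA GFP- (1.86, SE 0.26, adjusted p = 0.000606; ENSMUSG00000022231, chromosome 15, 32244810 to 32696341, plus strand), and uncalled between the GFP+ groups (0.04, adjusted p = 0.926). Sema5b, its closest relative, ran the other way, with 50.9, 64.8 and 50.9 CPM in SAG GFP+, 16.2, 22.7 and 27.4 CPM in RA GFP+ and 50.9, 94.6 and 93.9 CPM in RA GFP-. RA GFP+ was the lowest group in every library. Sema5b (ENSMUSG00000052133, chromosome 16, 35541145 to 35664732, plus strand) was 3.61-fold lower in RA GFP+ than in RA GFP- (-1.85, SE 0.25, adjusted p = 0.000561) and 2.51-fold higher in SAG GFP+ than in RA GFP+ (1.33, SE 0.25, adjusted p = 0.00264). Sema6d, a ligand of Plxna1, had 12, 13.5 and 24.4 CPM in SAG GFP+, 4.43, 8.84 and 11.5 CPM in RA GFP+ and 13.6, 27.5 and 31.7 CPM in RA GFP-. Libraries of RA GFP+ lay below those of RA GFP-, and replicate 1 was the lowest in all groups. Its fall in RA GFP+ (-1.55, SE 0.40, adjusted p = 0.0201) was lost without any 1 of RA GFP- replicates 2 and 3 and RA GFP+ replicates 1 and 2 (adjusted p from 0.0617 to 0.0693). Between the GFP+ groups Sema6d was not called (1.01, SE 0.40, adjusted p = 0.0884), though SAG GFP+ lay above RA GFP+ in every library. It was called higher there in 5 alternatives, DESeq2 among them (0.0348).

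Class 4 semaphorins, transmembrane ligands mainly of B plexins, had their smallest sum in SAG GFP+, at 27.3 ± 3.05 in SAG GFP+, 40.4 ± 1.77 in RA GFP+ and 38.6 ± 2.08 in RA GFP- CPM per kb. Sema4b had 29.3, 33.6 and 29.2 CPM in SAG GFP+, 34.6, 43.6 and 34.2 CPM in RA GFP+ and 82.3, 71.5 and 77.4 CPM in RA GFP-. Both GFP+ groups lay far below RA GFP-. It was 2.06-fold lower in RA GFP+ than in RA GFP- (-1.04, SE 0.14, adjusted p = 0.000456) and was not called between the GFP+ groups (-0.29, adjusted p = 0.153). Sema4c, a ligand of Plxnb2, averaged 64.7 ± 16 CPM in SAG GFP+, 102 ± 13.1 CPM in RA GFP+ and 54.8 ± 5.92 CPM in RA GFP-. It was higher in RA GFP+ than in RA GFP- (0.90, adjusted p = 0.00521) and lower in SAG GFP+ than in RA GFP+ (-0.66, adjusted p = 0.019; 0.0696 to 0.0733 without any 1 of RA GFP+ replicates 1 and 2 and SAG GFP+ replicates 2 and 3). Sema4d, the ligand of Plxnb1, averaged 31.6 ± 0.831 CPM in SAG GFP+, 55.8 ± 5.02 CPM in RA GFP+ and 62.6 ± 9.09 CPM in RA GFP-. It was lower in SAG GFP+ than in RA GFP+ (-0.82, adjusted p = 0.00128) and was not called between the RA groups. Sema6c, a class 6 gene, averaged 18.5 ± 1.31 CPM in SAG GFP+, 36.7 ± 6.84 CPM in RA GFP+ and 27.5 ± 6.15 CPM in RA GFP- and was likewise lower in SAG GFP+ than in RA GFP+ (-0.99, adjusted p = 0.00319). Sema4a, Sema4f, Sema4g, Sema6b and Sema7a, a lipid-anchored ligand of Plxnc1, were called in neither comparison. Sema7a averaged 3.25 ± 0.196 CPM in SAG GFP+, 3.03 ± 0.124 CPM in RA GFP+ and 3.12 ± 0.597 CPM in RA GFP-.

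**Figure D5:**
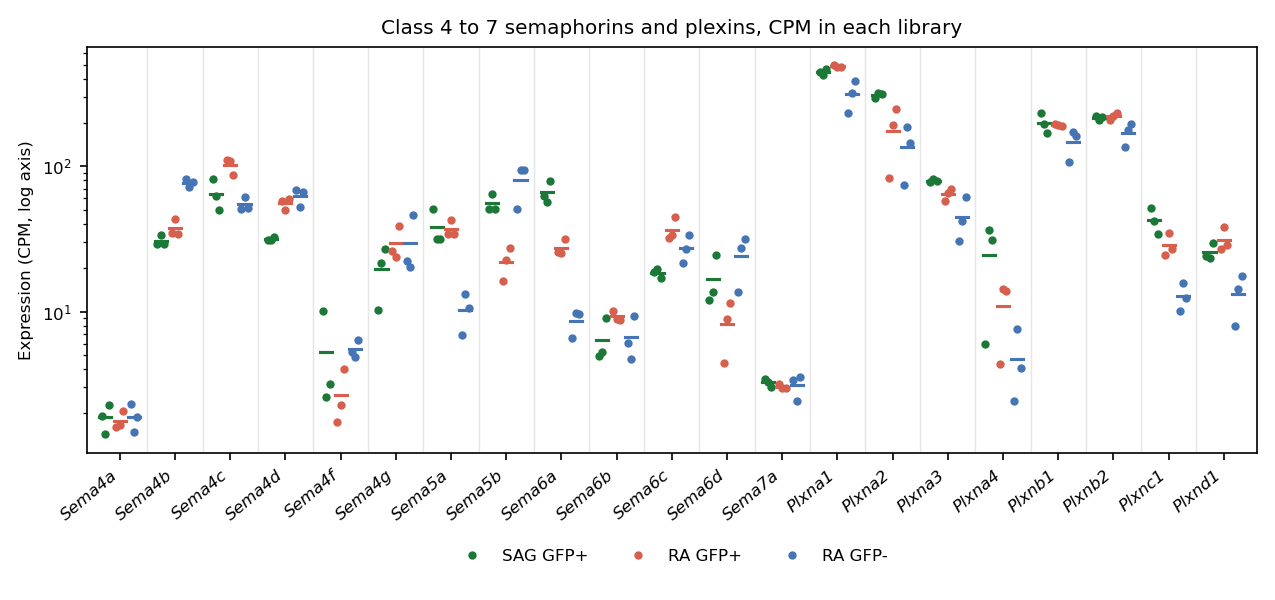
CPM in each library (points) and group means (lines) for semaphorins of classes 4 to 7 and the tested plexins on a log axis. Sema6a is highest in SAG GFP+, next in RA GFP+ and lowest in RA GFP-, Sema5b is lowest in RA GFP+, and replicate 1 is the lowest library of each group for Plxna4.

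Plexins, the receptors that carry the semaphorin signal into the cell, had higher group means in RA GFP+ than in RA GFP- for all 8 tested genes. Of these, 3 were called higher (37.5%, against 16.9% of all genes tested called either way, median log2 fold change 0.58). Plxnc1, the receptor of Sema7a, had 51.6, 42 and 33.9 CPM in SAG GFP+, 24.5, 34.4 and 27 CPM in RA GFP+ and 10.03, 15.7 and 12.3 CPM in RA GFP-. Both GFP+ groups lay above RA GFP-. Its level was 2.26-fold higher in RA GFP+ than in RA GFP- (1.17, SE 0.22, adjusted p = 0.0033; ENSMUSG00000074785, chromosome 10, 94790866 to 94944835, minus strand). Plxnd1, the receptor of Sema3e, had 24.2, 23.2 and 29.5 CPM in SAG GFP+, 27, 37.9 and 28.7 CPM in RA GFP+ and 7.98, 14.3 and 17.5 CPM in RA GFP-. RA GFP- was again the lowest group without overlap. It rose 2.35-fold in RA GFP+ (1.23, SE 0.26, adjusted p = 0.00684). Plxna1 had 447, 422 and 466 CPM in SAG GFP+, 494, 481 and 485 CPM in RA GFP+ and 234, 319 and 387 CPM in RA GFP-. It was higher in RA GFP+ than in RA GFP- (0.64, SE 0.16, adjusted p = 0.0149), and 10.7% of its exon bases overlap an antisense gene that had 0 counts.

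Between SAG GFP+ and RA GFP+, 0 of 8 plexins were called in the filtered edgeR fit of all 9 libraries without a block, against 24.5% of all genes tested. In that fit 2 of 8 (Plxna2 and Plxnc1) had an unadjusted p under 0.05, and 1 of 8 (Plxnc1) was called by DESeq2. Plxna2, a receptor of Sema6a, had 297, 321 and 317 CPM in SAG GFP+, 83.6, 191 and 246 CPM in RA GFP+ and 74.4, 188 and 144 CPM in RA GFP-. The SAG GFP+ libraries were even and lay above every RA library, whereas replicate 1 was the lowest in both RA groups. Plxna4, the other receptor of Sema6a, had 5.95, 36.2 and 30.8 CPM in SAG GFP+, 4.35, 14.2 and 14 CPM in RA GFP+ and 2.44, 7.62 and 4.07 CPM in RA GFP-. Replicate 1 was the lowest library in all groups, and the groups overlapped (1.16, SE 0.62, adjusted p = 0.195). Plxna3 averaged 79.6 ± 2.14 CPM in SAG GFP+, 64.3 ± 5.9 CPM in RA GFP+ and 44.8 ± 15.5 CPM in RA GFP- (0.31, adjusted p = 0.301). The B plexins Plxnb1 and Plxnb2 had group means between 147 CPM (Plxnb1 in RA GFP-) and 220.1 CPM (Plxnb2 in RA GFP+) and were called in neither comparison.

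The replicate numbers pair the RA libraries. In a fit of the RA groups alone, 28 genes were higher and 9 lower in RA GFP+ with the number as a block, against 21 and 7 without it. In the fit of all 9 libraries the counts were 26 and 7 with the block, against 20 and 7 without it. The plexins Plxna3 (log2 fold change 0.57, adjusted p = 0.0085, in the fit of the RA groups alone as for the other genes here), Plxna4 (1.18, adjusted p = 0.00303) and Plxnb2 (0.38, adjusted p = 0.0115) were higher with the block in both fits, as were Ephb2 (0.46, adjusted p = 0.0118), Efna5 (0.46, adjusted p = 0.00732) and Efnb2 (0.68, adjusted p = 0.000902). The call of Efnb2 needed no block when the RA groups were fitted alone (adjusted p = 0.0362). Plxnb1 (0.42, adjusted p = 0.0331) and Sema6c (0.42, adjusted p = 0.0151) were higher, and Epha2 (-0.58, adjusted p = 0.0167) and Sema4f (-1.10, adjusted p = 0.00879) lower, with the block in the fit of the RA groups alone but not in that of all libraries (adjusted p = 0.13, 0.0871, 0.125 and 0.15). The 6 calls between the RA groups that were lost in some alternative were kept with the block in both fits. In the fit of the RA groups alone, adjusted p was 0.00011 for Epha3, 0.000833 for Epha4 and 0.0052 for Epha7. It was 0.00218 for Ephb4, 0.00165 for Efna1 and 1.83e-05 for Sema6d. Leaving out libraries was not combined with the block.

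SAG GFP+ differs from RA GFP- in both sort and medium, which cannot be told apart. In that comparison 18 of the 51 genes were higher and 5 lower (45.1% called, against 28.5% of all genes tested, with 12% higher and 16.5% lower), and the median log2 fold change was 0.20, against -0.01 over all tested genes. Of these 23 calls, 9 were lost under at least 1 alternative. Of the 8 plexins, 6 were higher, Plxnc1 (1.74, adjusted p = 0.000147) and Plxna2 (1.20, adjusted p = 0.0285) among them. Plxna4 was called (2.37, adjusted p = 0.0178) although its libraries overlapped. Without any 1 of RA GFP- replicates 1 and 3 and SAG GFP+ replicates 2 and 3, the calls of Plxna2 (adjusted p from 0.0546 to 0.0843) and Plxna4 (0.0517 to 0.0714) were lost. Plxna1 lost its call without RA GFP- replicate 2 or SAG GFP+ replicate 3 (0.0689 and 0.0744) and in a fit of the 2 groups alone (0.0668), and Plxnd1 without SAG GFP+ replicate 3 (0.0577). Sema6a differed most among the higher genes, at 7.66-fold (2.94, SE 0.20, adjusted p = 2.47e-06), followed by Sema3f and Sema3e among the semaphorins (2.03, adjusted p = 4.36e-06, and 1.94, adjusted p = 0.000687). Ephb3, Epha8, Epha4, Ephb1 and Ephb2 were the Eph receptors that were higher beside Epha1, whose log2 fold change of 1.79 was 0.50 without SAG GFP+ replicate 1 (adjusted p = 0.269). The call of Ephb1 (0.97, adjusted p = 0.0462) was lost in a fit of the 2 groups alone (0.0547) and without any 1 of 6 libraries (0.0529 to 0.145). The ephrins Efna5 (0.55, adjusted p = 0.04) and Efnb3 (0.46, adjusted p = 0.0495) were higher as well, but Efna5 lost its call without any 1 of 5 libraries (0.0577 to 0.113) and Efnb3 in 12 alternatives (0.0519 to 0.179). Epha3 (-3.20, SE 0.60, adjusted p = 0.00217) and Epha10 (-3.24, SE 0.53, adjusted p = 0.000861) were lower, as were Sema4b, Sema4d and Sema6c, of which Sema6c (-0.57, adjusted p = 0.0438) lost its call in 9 alternatives (0.0516 to 0.146). Sema3a, Sema3d and Nrp1 were not called, with log2 fold changes of -0.28, -0.72 and -0.24.

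Proteins known to act with Eph receptors and ephrins inside the cell (24 genes, all tested) gave 6 higher in RA GFP+ against RA GFP- with the other 18 not called (25% called, against 16.9% of all genes tested), and a median log2 fold change of 0.24. The smallest adjusted p belonged to Grip1, a scaffold that binds B ephrins, at 69.4 CPM in RA GFP+ and 36.9 CPM in RA GFP- (0.91, SE 0.13, adjusted p = 0.000873), and to Grb10, an adaptor of receptor kinases, at 1604 CPM in RA GFP+ and 752 CPM in RA GFP- (1.09, SE 0.24, adjusted p = 0.00885). In SAG GFP+ against RA GFP+, 5 were higher and 1 lower (median 0.00), and the 25% called lay next to the 24.5% of all genes tested. Chn1, a Rac regulator downstream of Epha4, was higher at 73.5 CPM in SAG GFP+ and 35.4 CPM in RA GFP+ (1.05, SE 0.16, adjusted p = 0.000581), as was Itsn1, an exchange factor that binds Ephb2 (0.67, SE 0.15, adjusted p = 0.00665), and Grip1 was lower (-0.41, SE 0.13, adjusted p = 0.045). In SAG GFP+ against RA GFP-, 10 were higher and the others not called (41.7% called, against 28.5% of all genes tested), led by Itsn1 (0.89, SE 0.15, adjusted p = 0.00101) and the kinase Fyn (1.06, SE 0.18, adjusted p = 0.00111).

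Partners of semaphorins and plexins (26 genes, all tested) moved in both directions. In RA GFP+ against RA GFP-, 8 were higher and 4 lower (46.2% called, against 16.9% of all genes tested, with a median log2 fold change of 0.00). Crmp1 and Dpysl3, cytosolic proteins of the family that carries the Sema3a response, fell, with Crmp1 at 37 CPM in RA GFP+ and 93.1 CPM in RA GFP- (-1.33, SE 0.16, adjusted p = 0.000202) and Dpysl3 at 62.1 CPM in RA GFP+ and 212 CPM in RA GFP- (-1.77, SE 0.29, adjusted p = 0.00148). Itgb1, the integrin chain that binds Sema7a, and Farp1, which binds A plexins, rose (0.88, SE 0.10, adjusted p = 0.000193 and 0.75, SE 0.15, adjusted p = 0.00475). In SAG GFP+ against RA GFP+, 6 were higher and 6 lower (46.2% called, against 24.5% of all genes tested, median 0.00). Crmp1 was the most raised of these, at 195 CPM in SAG GFP+ and 37 CPM in RA GFP+ (2.40, SE 0.16, adjusted p = 3.47e-06), followed by its relative Dpysl2 (1.20, SE 0.16, adjusted p = 0.000287). Met, the HGF receptor that couples to B plexins, and Mical2, an enzyme that takes apart actin, were lower (-2.23, SE 0.35, adjusted p = 0.00086 and -1.42, SE 0.27, adjusted p = 0.00268). In SAG GFP+ against RA GFP-, 8 were higher and 3 lower (42.3% called, against 28.5% of all genes tested), with Crmp1 higher (1.07, SE 0.15, adjusted p = 0.00041) and Dpysl3 (-1.83, SE 0.29, adjusted p = 0.000682) and Gipc1, which binds neuropilins, lower (-0.45, SE 0.14, adjusted p = 0.0306). Crmp1 and Dpysl genes are also abundant in neurons, whose 10 markers were higher in 9 of 10 in SAG GFP+ against RA GFP+, and the part of neurons in these differences was not tested.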

How the data were processed

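Poly(A) RNA was made into stranded libraries, per the labels' protocols. The authors deposited raw counts per Ensembl gene, made on GRCm38 with Bowtie2 2.3.4.1, Trim Galore 0.5.0 and featureCounts of Subread 1.6.2, per the submitters' processing notes. Whether counting used strand, which annotation it used and how it treated multi-mapping reads is not stated in these notes, so overlapping or antisense genes are uncertain. Symbols, positions and exon lengths came from GENCODE M21.

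The counts were tested with edgeR 4.0.16 in R 4.3.3: TMM scaling, filterByExpr (minimum count 10), 1 fit of 9 libraries with a mean per group and Benjamini-Hochberg adjustment over 16772 genes. SE is the log2 fold change divided by the square root of F. The biological coefficient of variation was 0.226, and correlations of log2 CPM (prior count 2, across genes) were 0.970 to 0.986 within groups and 0.887 to 0.951 between. P-values measure the spread between these samples only. The fit was tested on simulated data for RA GFP+ over RA GFP-. There 33.3% of genes set to an absolute log2 fold change of 1 were recovered, and 95.9% at 2. Of unchanged genes 0.0309% were called. A gene that was not called may therefore still differ. Alternatives were DESeq2 1.42.0, other scalings, no filter, 2 groups, a replicate block and leaving out libraries.

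The genes and lists were chosen with earlier results of these data known. Genes called with an absolute log2 fold change of at least 1 and at least 1 CPM in the higher group are given library by library, and each partner list names its 2 smallest adjusted p per direction, of which 1 is not reported here. Deviations from group means correlated between same-numbered RA GFP+ and RA GFP- libraries (r = 0.273, 0.307 and 0.347 for replicates 1 to 3, over genes). These libraries were therefore taken as pairs in the fits with the replicate number as a block. All other fits, the one behind the calls of higher or lower included, leave the pairing out.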

Additional observations from a re-analysis of the deposited data

How the results depend on the processing

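Among the genes named in full (20, 10 and 13 in RA GFP+ over RA GFP-, SAG GFP+ over RA GFP+ and SAG GFP+ over RA GFP-), 308 of the values under alternatives kept direction and side of the threshold in the first comparison, 144 in the second and 194 in the third, while 12, 16 and 14 lost the call, and none changed direction. The number of genes higher in SAG GFP+ than in RA GFP+ was 6, and 10 in DESeq2, 11 without the low-count filter and 12 with the replicate number as a block (12 in a fit of those groups alone). The plexins Plxna2, Plxna4 and Plxnc1 were among those 12, with adjusted p of 0.0115, 0.0135 and 0.0367 with the block in the fit of all libraries (0.021, 0.0104 and 0.0443 in the fit of those groups alone, where Plxna3 joined them at 0.0481). The number lower in SAG GFP+ than in RA GFP- was 5, and 8 without the filter. The causes were not tested.

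Leaving out each library in turn gave 17 to 21 higher and 4 to 8 lower in RA GFP+ over RA GFP-. It gave 3 to 8 higher and 8 to 12 lower in SAG GFP+ over RA GFP+, with 3 higher without RA GFP+ replicate 2 and 6 higher and 12 lower without SAG GFP+ replicate 1. It gave 12 to 17 higher and 4 to 6 lower in SAG GFP+ over RA GFP-, with 12 higher without RA GFP- replicate 1. Only 4 were lower in RA GFP+ over RA GFP- without RA GFP+ replicate 2.

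Deviations of same-numbered SAG GFP+ and RA libraries correlated weakly and with mixed signs (r = 0.111, -0.082 and 0.182 with RA GFP+, and 0.175, -0.022 and 0.242 with RA GFP-). The numbers were therefore not taken as pairs there, though a weak pairing cannot be told from none. The block gave 12 lower in SAG GFP+ over RA GFP+, and 17 higher and 4 lower in SAG GFP+ over RA GFP- in fits of those groups alone (20 and 7 in a fit of all libraries). Upper quartile scaling moved the median of all genes to -0.065 at most. Genes near 1 CPM, such as Epha10, Sema3d and Epha5, rest on few counts per library in their lower group.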
